A study of Homo sapiens with 20 samples.

Results

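The genes described here encode 10 factors of nuclear RNA decay: DIS3, EXOSC3, EXOSC10, MTREX, ZCCHC8, RBM7, ZFC3H1, XRN2, PABPN1 and TENT4B. They were chosen by name for their role, with earlier results of these data already known. All 10 were found among the 57087 genes to which the deposited transcripts could be assigned, with 76 transcripts between them, and all 10 passed the filter on low counts in every comparison.

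Much of the RNA made in a nucleus is degraded there. The RNA exosome is a barrel of inactive ring and cap subunits, among them EXOSC3, to which 2 catalytic subunits are attached: DIS3, which removes nucleotides from 3′ ends and can also cut internally, and EXOSC10, a 3′ exonuclease found mainly in nucleoli and nuclei. The helicase MTREX (older symbol SKIV2L2) threads RNA into the barrel. It is brought to its substrates by adaptors: ZCCHC8 and RBM7 in the NEXT complex, which serves short-lived unprocessed transcripts such as promoter upstream transcripts, and ZFC3H1 with the poly(A) binding protein PABPN1 in the PAXT connection, which serves polyadenylated nuclear RNA. TENT4B (older symbol PAPD5) is a non-canonical poly(A) polymerase that adds short tails to exosome substrates, as part of the TRAMP complex. XRN2 degrades from the 5′ end, and it is known for removing the RNA downstream of a cleaved poly(A) site so that RNA polymerase II terminates.

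The study asked how loss of the RNA interference factors Dicer, Ago2 and Drosha changes steady-state and nascent transcription in HEK293, a human embryonic kidney cell line. mRNA-seq covered 3 wt and 3 shDicer samples, and chrRNA-seq, which sequences the RNA that stays with purified chromatin and so is enriched for nascent transcripts, covered 2 wt, 2 shDicer, 2 shAgo2 and 2 shDrosha samples. The wt cells of mRNA-seq are labelled HEK293T and its shDicer cells HEK293 2B, both under 3 µg/ml doxycycline for 7 days, so the wt cells received the drug too. In chrRNA-seq, shDicer and shAgo2 are stable lines with an inducible hairpin (3 µg/ml doxycycline for 72 h), shDrosha is a plasmid transfected transiently, and no treatment is given for wt. The methods list more than one inducible line with a hairpin against Dicer, one of them a clone that also carries a tagged Dicer, and do not say which was sequenced. None of the 14 samples is from a line with a scrambled hairpin, so that the effect of a knockdown and a difference between cell lines cannot be told apart. An mRNA-seq library held 10216430 to 17215978 estimated counts, and a chrRNA-seq library 17484067 to 21553760. Where not stated otherwise, levels are CPM (counts scaled to library size, TMM-normalized), changes are log2 fold changes with their standard error (SE), and adjusted p-values come from the quasi-likelihood test of edgeR over all genes tested.

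The targeted genes were measured first. DICER1 was at 232 to 257 CPM in wt and 81 to 94 CPM in shDicer mRNA-seq (log2 fold change −1.49, adjusted p = 1.28e-07). In chromatin RNA, DICER1 did not pass the test in shDicer cells (−0.18, adjusted p = 0.166). AGO2 fell in shAgo2 cells (−0.62, adjusted p = 9.29e-05), and DROSHA was not lower in the samples labelled shDrosha (0.069, adjusted p = 0.697). The study shows qRT-PCR of steady-state transcripts of the targeted genes from the samples used for chrRNA-seq, and western blots described as successful knockdown. Steady-state RNA and protein of these genes cannot be read from chromatin RNA, so a failed knockdown is not shown. Among markers of HEK293 cells, VIM lay between 158 and 573 CPM in every sample, although in chromatin RNA it was at 511 to 573 CPM in wt and at 158 to 359 CPM in the other 3 groups. PAX2 was at 0.076 to 0.27 CPM in mRNA-seq, at or near the level that 3 counts give. In chromatin RNA it was at 10.4 to 11.2 CPM in wt, 19.4 to 22.0 in shDicer and 12.8 to 15.8 in shAgo2 cells. The samples labelled shDrosha had 11.4 to 15.8 CPM of PAX2. Of 5 markers of other tissues, blood (PTPRC), liver (ALB) and muscle (DES) stayed at 2.17 CPM or less in every sample, and PECAM1 of the endothelium at 17.5 CPM or less. The epithelial marker EPCAM was at 1.36 to 2.19 CPM in wt and the samples labelled shDrosha, but at 156 to 183 CPM in shDicer mRNA-seq and at 37.0 to 49.2 CPM in chromatin RNA of shDicer and shAgo2 cells. NEFL moved likewise, from 10.9 to 18.3 CPM in wt to between 89.3 and 756 CPM in these lines. Its partner NEFM moved the opposite way, from 24.1 to 24.8 CPM in wt chromatin RNA to between 0.66 and 2.70 CPM in shDicer and shAgo2 cells and 11.6 CPM in the samples labelled shDrosha, and from 6.05 to 6.45 CPM in wt mRNA-seq to between 0.24 and 0.55 CPM in shDicer cells. NEAT1, a nuclear long noncoding RNA, was at 700 to 776 CPM in wt chromatin RNA and at 6382 to 8182 CPM in shDicer and shAgo2 cells. It was at 1794 to 2291 CPM in the samples labelled shDrosha. MALAT1, another such RNA, did not rise with it in the lines. In chromatin RNA it was at 815 to 836 CPM in wt, 579 to 638 in shDicer and 755 to 816 in shAgo2 cells. The samples labelled shDrosha had 1165 to 1388 CPM of MALAT1. In mRNA-seq MALAT1 was at 437 to 588 CPM in wt and 250 to 358 in shDicer cells. The summed level of 6 mitochondrial mRNAs was 3079 to 3442 CPM in wt chromatin RNA, 4172 to 4555 in shDicer, 5430 to 5537 in shAgo2 and 3839 to 4056 in the samples labelled shDrosha, and in mRNA-seq 1271 to 1334 CPM in wt and 1955 to 2364 in shDicer cells. Whether these differences take part in the changes given here was not tested.

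The exon that distinguishes one DIS3 transcript is shown first, since a result below rests on it. DIS3 lies on the minus strand of chromosome 13 (hg38, chr13:72752169-72782096). The transcript DIS3-204, annotated as a target of nonsense-mediated decay, lacks the 85-nt exon 13 of the 21 exons of the coding transcript DIS3-201 (chr13:72770904-72770988). Each line gives the last 15 bases of an exon in lower case and the first 15 bases of the next exon in capitals, read from the genome in the direction of the gene:
Entry into exon 13, in the coding transcripts of DIS3: atgtgacgtggacagGCTGGCATTTTCATG
Exit from exon 13, likewise: gttattaattcaaagGCATCTCTGACGTAT
Exon 13 skipped, in DIS3-204 alone: atgtgacgtggacagGCATCTCTGACGTAT

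The promoters of 2 further members, EXOSC10 and XRN2, are given as the 250 bases before a RefSeq start site (GRCh38.p14). Against wt, EXOSC10 rose past the threshold in shDicer mRNA-seq alone, and XRN2 fell past it in shDicer chromatin RNA alone. All 10 genes had a match in RefSeq, with 14 windows. The window of DIS3 and the other window of XRN2 overlap annotated exons and are not printed. Windows of the remaining members are not shown here. Capitals mark matches, on either strand, to the CCAAT box (CCAAT), the core of an NRF1 site (GCATGCG), an ETS site (CCGGAAG), the cAMP response element (TGACGTCA) or the GC box (GGGCGG):
EXOSC10, chr1:11099870-11100119, minus strand: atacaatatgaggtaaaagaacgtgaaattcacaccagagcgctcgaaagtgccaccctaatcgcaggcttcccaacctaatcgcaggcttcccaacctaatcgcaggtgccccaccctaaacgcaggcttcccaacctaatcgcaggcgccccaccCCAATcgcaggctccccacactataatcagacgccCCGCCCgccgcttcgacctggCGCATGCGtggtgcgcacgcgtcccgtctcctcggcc
XRN2, chr20:21303081-21303330, plus strand: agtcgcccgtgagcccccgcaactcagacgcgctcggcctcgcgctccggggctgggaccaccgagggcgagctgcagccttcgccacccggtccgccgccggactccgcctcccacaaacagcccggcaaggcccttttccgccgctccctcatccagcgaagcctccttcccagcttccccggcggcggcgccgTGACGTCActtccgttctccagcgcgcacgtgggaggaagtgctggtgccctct
The EXOSC10 window held a CCAAT box, a GC box and an NRF1 core that matches on both strands in overlapping positions. The XRN2 window held a cAMP response element and none of the other 4 motifs. Of 35116 RefSeq promoter windows of this length, 32.0% held a CCAAT box, 42.6% a GC box, 8.52% an ETS site, 3.39% the NRF1 core and 1.65% the cAMP response element. A match describes the letters of a window and does not show that a factor binds there.

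Levels of different genes were compared in TPM, transcript abundances corrected for length and library size. In wt mRNA-seq, DIS3 had the highest level of the 10 genes, 82.4 ± 6.69 TPM (SD, n = 3), followed by MTREX at 68.7 ± 5.17 TPM. PABPN1, XRN2 and EXOSC3 came next at 32.9, 30.5 and 27.7 TPM, and neighbours in this order overlapped between samples. EXOSC10 was at 22.1 ± 0.466 TPM. The adaptors and the polymerase were lowest: RBM7, TENT4B, ZFC3H1 and ZCCHC8 lay between 10.5 and 8.31 TPM, each overlapping the next. The 10 genes lay between percentiles 81.3 and 97.7 of the 29523 genes with a TPM above 0 there.

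In wt chromatin RNA the order was different. EXOSC3 (59.5 ± 8.06 TPM, SD, n = 2), EXOSC10 (58.3 ± 10.2 TPM) and MTREX (56.9 ± 3.01 TPM) were highest and overlapped each other. DIS3 stood below PABPN1 (37.2 TPM), which it overlapped, at 35.7 ± 0.158 TPM, and TENT4B last at 6.74 ± 0.695 TPM, at percentile 61.8 of 41680 genes. ZFC3H1 and ZCCHC8 stood at 23.3 and 23.4 TPM, above XRN2 at 18.7 TPM, although they were the lowest 2 in mRNA-seq. The TPM values of both assays are each a share of a different population of RNA and are set side by side without a test.

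**Figure D1:**
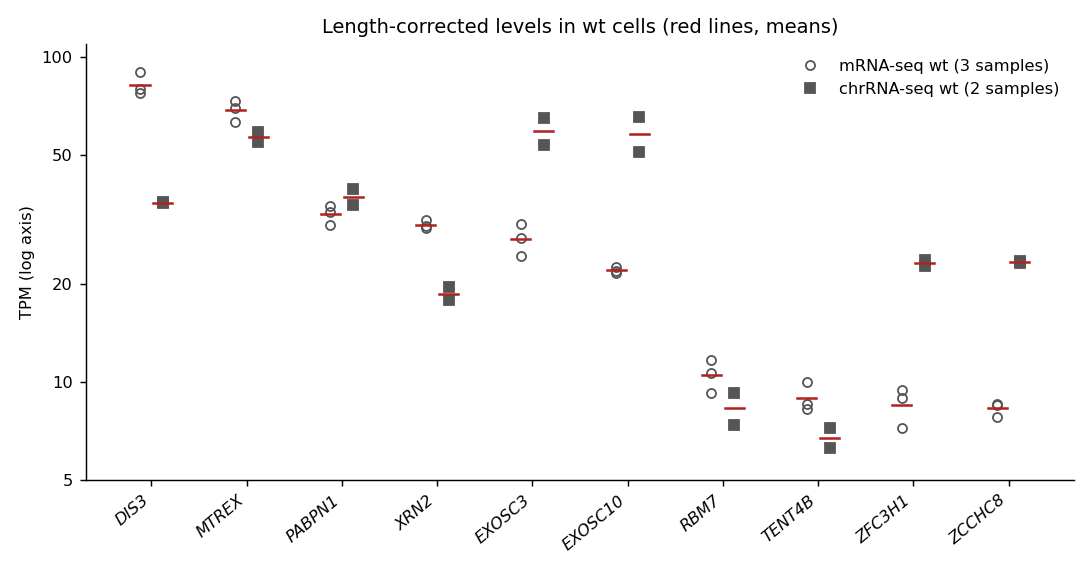
TPM (log axis) of the 10 genes in wt cells, ordered by their mean in mRNA-seq. Open circles are the 3 mRNA-seq samples, filled squares the 2 chrRNA-seq samples and red lines means. DIS3 is highest in mRNA-seq at 82.4 TPM and at 35.7 TPM in chrRNA-seq, while EXOSC3 and EXOSC10 are higher in chrRNA-seq.

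In mRNA-seq, 5 of the 10 genes differed between shDicer and wt cells. DIS3, RBM7, ZFC3H1 and TENT4B fell and EXOSC10 rose (threshold, adjusted p under 0.001). Over all 15090 genes tested, 14.2% fell and 15.6% rose past the same threshold. The median log2 fold change of the 10 genes was −0.21, and that of all genes 0.011. In chromatin RNA of shDicer cells 3 of the 10 fell, DIS3, XRN2 and TENT4B, and none rose (threshold 0.005), where of 32874 genes 10.5% fell and 11.0% rose. Their median was −0.14, against 0.0072 for all genes. In shAgo2 chromatin RNA 2 fell, DIS3 and TENT4B, and none rose, against 12.1% of all genes that fell and 12.5% that rose. The medians were −0.062 for the 10 genes and 0.0028 for all. In the samples labelled shDrosha none of the 10 passed (threshold 0.05), where 3.38% of all genes did in either direction. The split of that 3.38% depends on the scaling: 392 genes were higher and 718 lower with TMM, and 768 higher and 527 lower with library size alone. DESeq2 also called none of them there, and 3 had an unadjusted p under 0.05 with edgeR. The 3 chromatin comparisons share their 2 wt samples. In these bulk samples, fewer cells of a type and less RNA per cell cannot be told apart.

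**Figure D2:**
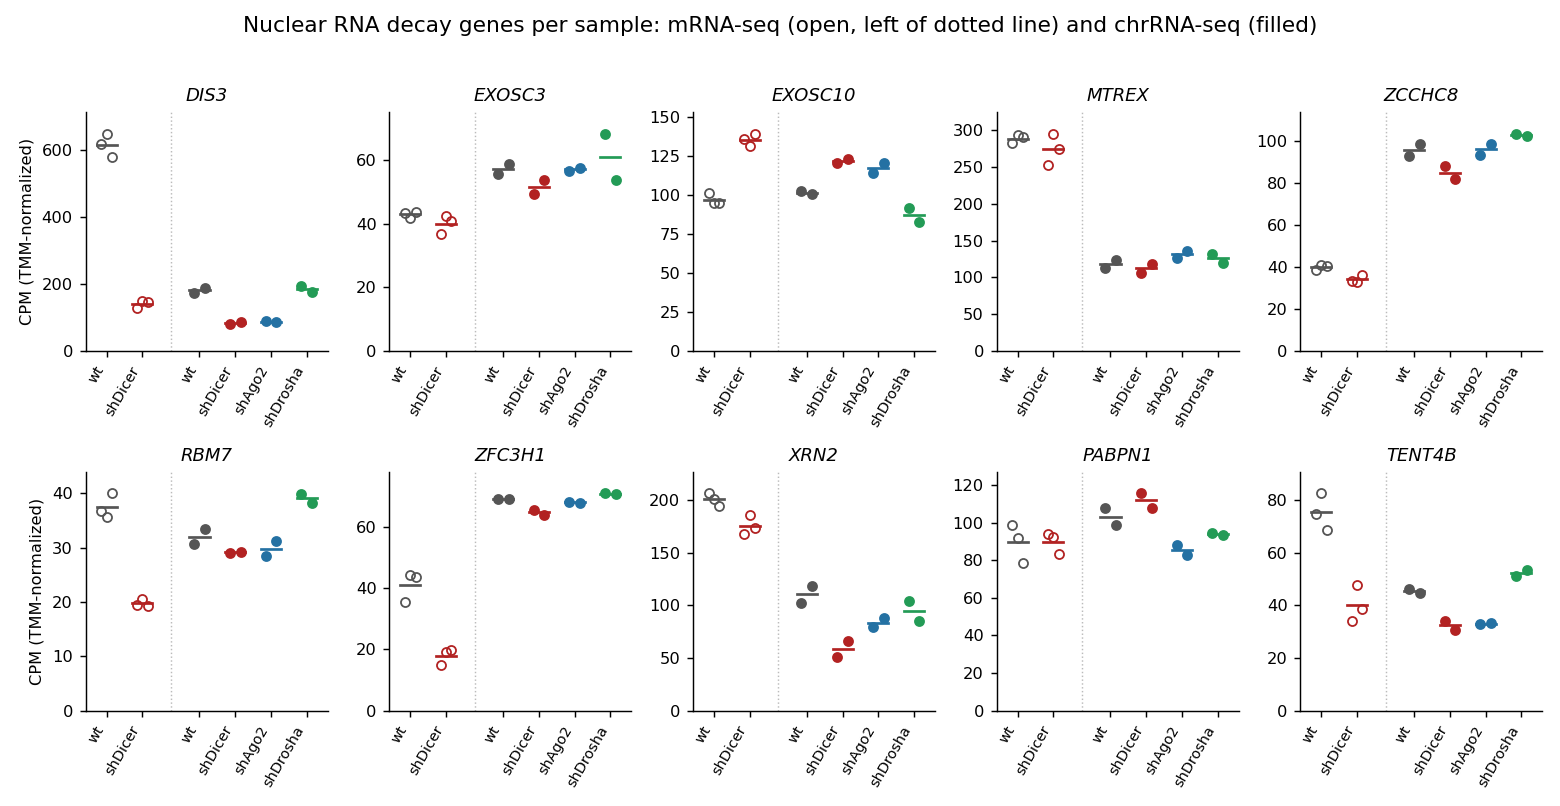
CPM (linear axis from 0) of each gene in every sample, with mRNA-seq as open circles left of the dotted line and chrRNA-seq as filled circles; horizontal lines are group means. DIS3 is low in all shDicer samples of both assays and in the shAgo2 samples, which are of chrRNA-seq only. RBM7 and ZFC3H1 are low in shDicer mRNA-seq while their chrRNA-seq values stay near wt, and XRN2 is lowest in shDicer chromatin RNA.

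DIS3, the catalytic subunit with both exonuclease and endonuclease activity, showed the largest change of the 10 in each of the first 3 comparisons. Its mRNA-seq level was 618, 650 and 580 CPM in wt and 130, 151 and 146 CPM in shDicer cells. The highest shDicer sample was far below the lowest wt sample, with a log2 fold change of −2.12 (SE 0.082, 4.34-fold lower, adjusted p = 1.41e-08). In chromatin RNA, DIS3 was at 174 and 188 CPM in wt, at 81.8 and 88.3 CPM in shDicer and at 89.3 and 87.3 CPM in shAgo2 cells. Both knockdown lines were clear of wt and overlapped each other. The log2 fold change was −1.09 (SE 0.083, adjusted p = 1.19e-06) in shDicer and −1.04 (SE 0.083, adjusted p = 1.48e-06) in shAgo2 cells. The samples labelled shDrosha, at 195 and 176 CPM, overlapped wt (0.036, adjusted p = 0.861). The 3 calls held under every alternative that kept the threshold.

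EXOSC10, the other catalytic subunit, went the opposite way from DIS3. In mRNA-seq it was at 101, 95.0 and 94.6 CPM in wt and at 136, 131 and 139 CPM in shDicer cells, without overlap, and it rose by 0.48 (SE 0.068, adjusted p = 1.26e-04). In chromatin RNA it was at 102 and 101 CPM in wt, at 120 and 123 CPM in shDicer and at 114 and 120 CPM in shAgo2 cells. The values of both lines lay above wt, yet the changes of 0.26 (adjusted p = 0.0185) and 0.21 (adjusted p = 0.0472) did not pass. In the samples labelled shDrosha it was at 91.6 and 82.5 CPM (−0.22, adjusted p = 0.140). The call in mRNA-seq was lost without wt replicate 2 (adjusted p = 0.00192) or wt replicate 3 (0.0014), and with counts rescaled from TPM (0.00121).

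EXOSC3, a cap subunit of the barrel, did not pass in any comparison. Its level in mRNA-seq was 43.5, 41.8 and 43.5 CPM in wt and 36.7, 42.5 and 40.7 CPM in shDicer cells, which overlap (−0.10, SE 0.091, adjusted p = 0.368). Its chromatin values ranged from 49.3 to 68.2 CPM over the 8 samples, with log2 fold changes of −0.15, −0.0026 and 0.093 in shDicer, shAgo2 and shDrosha samples.

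MTREX, the helicase shared by the adaptor complexes, was the second most abundant of the 10 in mRNA-seq. It was at 282, 293 and 290 CPM in wt and at 252, 295 and 274 CPM in shDicer cells (−0.074, SE 0.074, adjusted p = 0.411). Chromatin values were 113 and 123 CPM in wt, 107 and 119 in shDicer, 127 and 136 in shAgo2 and 131 and 120 in the samples labelled shDrosha. Only the shAgo2 samples lay clear of wt, and their change of 0.15 (adjusted p = 0.184) did not pass.

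The NEXT adaptors ZCCHC8, a zinc knuckle scaffold, and RBM7, its RNA binding partner, gave separate calls in mRNA-seq, RBM7 past the threshold and ZCCHC8 not. RBM7 was at 36.8, 35.6 and 40.02 CPM in wt and at 19.5, 20.6 and 19.3 CPM in shDicer cells. It fell by 0.92 on the log2 scale (SE 0.10, 1.89-fold lower, adjusted p = 1.91e-05). ZCCHC8 was at 38.7, 41.1 and 40.6 CPM in wt and at 33.6, 33.0 and 36.3 CPM in shDicer cells. Its groups did not overlap either, but the difference of −0.22 (SE 0.091, adjusted p = 0.0536) did not pass. In chromatin RNA neither passed against wt in any line. RBM7 was at 30.6 and 33.5 CPM in wt, 29.0 and 29.2 in shDicer, 28.5 and 31.2 in shAgo2 and 39.9 and 38.3 in the samples labelled shDrosha, where the value of 0.29 was the largest of the 10 (adjusted p = 0.0946). RBM7 shares 11.8% of its 31-base words with other annotated genes, and ZCCHC8 6.58%, so that some reads can be divided between genes.

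Of the PAXT factors, ZFC3H1, which links MTREX to polyadenylated RNA, fell in mRNA-seq, and PABPN1 did not pass. ZFC3H1 was at 35.4, 44.3 and 43.6 CPM in wt and at 15.0, 19.1 and 19.7 CPM in shDicer cells, so that it fell by 1.19 on the log2 scale (SE 0.13, 2.28-fold lower, adjusted p = 2.54e-05). Its chromatin RNA ranged from 63.9 to 71.0 CPM over the 8 samples, with changes of −0.094, −0.021 and 0.037 in shDicer, shAgo2 and shDrosha samples. With protein-coding transcripts alone, the mRNA-seq change was of like size (−1.13) but not past the threshold (adjusted p = 0.232). The share of ZFC3H1 counts in coding transcripts ranged from 0.63 to 64.5% among the 3 shDicer samples, against 32.5 to 36.4% in wt.

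PABPN1, the nuclear poly(A) binding protein, was at 99.0, 92.0 and 78.8 CPM in wt and at 94.1, 92.2 and 83.6 CPM in shDicer mRNA-seq (−0.0021, SE 0.093, adjusted p = 0.987). In chromatin RNA it was at 108 and 98.6 CPM in wt, 116 and 108 in shDicer, 88.2 and 82.9 in shAgo2 and 94.3 and 93.2 in the samples labelled shDrosha. The shAgo2 samples were lowest, with a change of −0.27 that did not pass (adjusted p = 0.0155). It did when only the shAgo2 and wt samples were fitted (adjusted p = 0.0019), a fit in which calls over all genes rose as well. They went from 8069 of 32874 genes to 11001 of 31547. Of the 31-base words of PABPN1, 17.5% also occur in other genes, most often in the read-through gene BCL2L2-PABPN1. Adding the counts of that gene changed no call of PABPN1.

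TENT4B, the poly(A) polymerase of TRAMP, was lower in both lines with an inducible hairpin. In mRNA-seq it was at 74.8, 82.6 and 68.8 CPM in wt and at 34.1, 47.9 and 38.8 CPM in shDicer cells (−0.91, SE 0.12, 1.87-fold lower, adjusted p = 9.77e-05). In chromatin RNA it was at 46.4 and 44.6 CPM in wt, at 34.3 and 30.7 CPM in shDicer and at 32.8 and 33.1 CPM in shAgo2 cells. Neither line overlapped wt, and the changes were −0.49 (SE 0.084, adjusted p = 6.64e-04) and −0.47 (SE 0.083, adjusted p = 7.78e-04). The samples labelled shDrosha were above wt at 51.0 and 53.3 CPM (0.20, adjusted p = 0.212). These calls are close to their thresholds. The mRNA-seq call was lost without wt replicate 1 (adjusted p = 0.00112), the shDicer chromatin call without wt replicate 1, wt replicate 2 or shDicer replicate 2 (0.0115, 0.00578 and 0.00626), and the shAgo2 call without any 1 of its 4 samples (0.00623 to 0.0127).

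XRN2, the 5′ exonuclease of transcription termination, differed between the assays. Its mRNA-seq level was 206, 201 and 195 CPM in wt and 167, 186 and 174 CPM in shDicer cells, a difference of −0.19 that did not pass (SE 0.069, adjusted p = 0.0346). In chromatin RNA it was at 102 and 118 CPM in wt, at 50.9 and 65.7 CPM in shDicer, at 79.8 and 87.7 CPM in shAgo2 and at 104 and 85.1 CPM in the samples labelled shDrosha. The shDicer samples were below all others, and XRN2 fell by 0.92 on the log2 scale (SE 0.13, 1.89-fold lower, adjusted p = 1.61e-04), a call that held under every alternative that kept the threshold and asked for no minimum fold. The shAgo2 value of −0.40 did not pass (adjusted p = 0.0257), but it did when only the shAgo2 and wt samples were fitted (adjusted p = 1.75e-04). Calls over all genes rose in that fit too, from 8069 of 32874 genes to 11001 of 31547. A single transcript represents XRN2 in the files, and none of its 31-base words occurs in another gene.

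The 10 genes were also compared between the lines directly, in chromatin RNA (threshold 0.005). Between shDicer and shAgo2 none differed past the threshold, where 2.71% of all genes did. DESeq2 called none either, and 4 had an unadjusted p under 0.05 with edgeR. XRN2 was lower in shDicer (−0.52, SE 0.13, adjusted p = 0.0257) and PABPN1 higher (0.39, SE 0.078, adjusted p = 0.00922), so a difference in these 2 genes is not shown. For DIS3 the difference was −0.055 (SE 0.083).

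Against the samples labelled shDrosha, 5 of the 10 differed in shDicer and 4 in shAgo2 cells, where 20.5% and 21.9% of all genes did. DIS3 was lower by 1.13 and 1.07, TENT4B by 0.68 and 0.66 and RBM7 by 0.43 and 0.39 on the log2 scale in shDicer and shAgo2 cells, and EXOSC10 was higher by 0.48 and 0.43. XRN2 was lower in shDicer cells (−0.70, adjusted p = 0.00122), and in shAgo2 cells its difference of −0.18 did not pass. With DESeq2, the tool of the study, RBM7 passed in neither comparison (adjusted p = 0.00833 and 0.0178). In edgeR its shDicer call was also lost without any 1 of the shDicer, shAgo2 and shDrosha libraries (0.00508 to 0.0153), and its shAgo2 call without any 1 of the wt, shAgo2 and shDrosha libraries (0.0064 to 0.06004). The XRN2 call was lost without shDicer replicate 1 (0.0114) or shDrosha replicate 1 (0.0104), and that of EXOSC10 in shAgo2 cells without either shAgo2 library or shDrosha replicate 2 (0.0069 to 0.017). Relative to the median of its 50 nearest tested neighbours on the chromosome, EXOSC10 stood at 0.0081 and 0.047 and passed in neither, and RBM7 and XRN2 also lost their calls relative to theirs. These comparisons set stable induced lines against transiently transfected cells, which cannot be told apart from the factor knocked down.

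**Figure D3:**
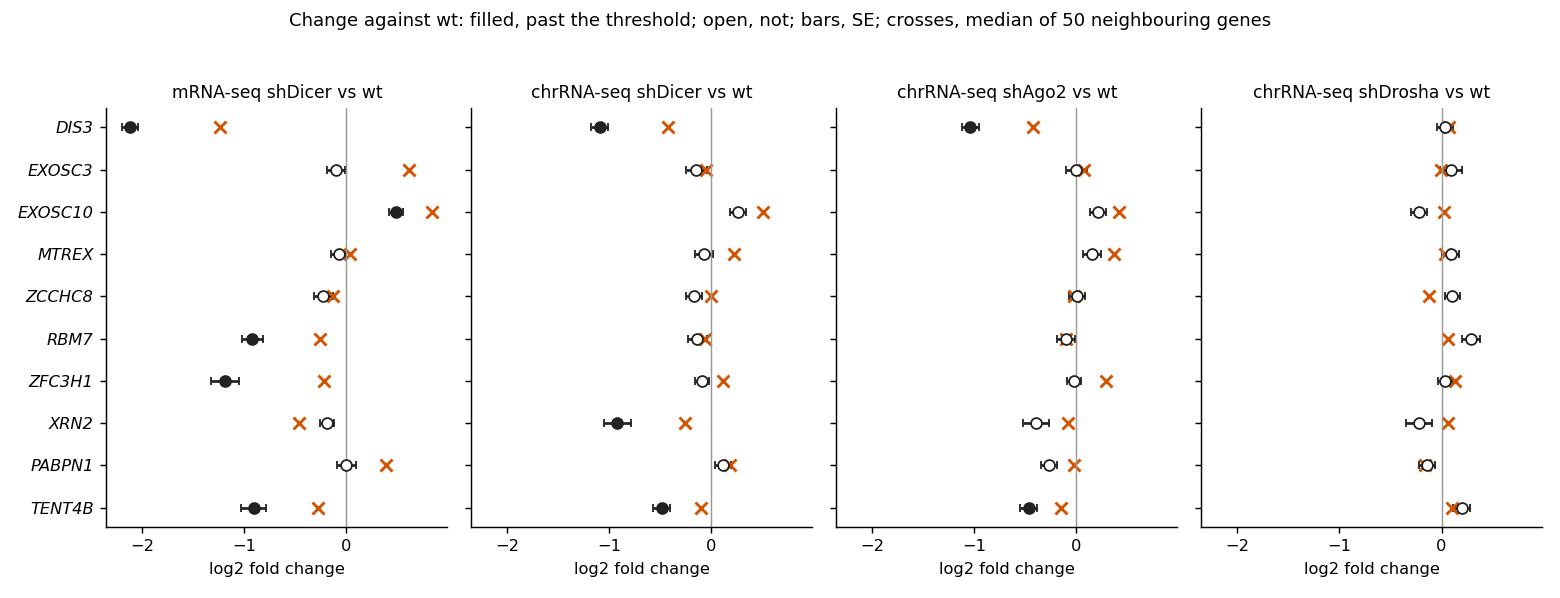
Log2 fold change against wt of each gene in the 4 comparisons (points, with SE as bars; filled points pass the threshold of that comparison), with the median log2 fold change of the 50 nearest tested genes on the same chromosome as crosses. DIS3 and EXOSC10 have neighbourhoods that move in their own direction in the first 3 comparisons. Those of XRN2 (−0.47, −0.26 and −0.084), RBM7 and TENT4B do so as well. For RBM7, ZFC3H1 and TENT4B the crosses lie nearer to 0 than for DIS3 and EXOSC10.

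The change of each gene was set beside that of its 50 nearest tested neighbours on the chromosome, 25 on each side. Around DIS3 these spanned 41.5 Mb in mRNA-seq and 17.2 Mb in chrRNA-seq, and around EXOSC10 6.88 and 1.97 Mb. The medians and offsets of the assays therefore rest on different sets of genes. Around DIS3, 33 of the 50 genes fell and 1 rose in shDicer mRNA-seq, with a median of −1.24. In chromatin RNA, 16 fell and none rose in shDicer cells (median −0.43), and 13 fell and 3 rose in shAgo2 cells (median −0.42). In the samples labelled shDrosha, where DIS3 did not change, the median was 0.074. With the neighbourhood median as an offset in the fit, DIS3 was still lower, by 0.88 in mRNA-seq (adjusted p = 7.01e-06), by 0.67 in shDicer (8.64e-05) and by 0.62 in shAgo2 chromatin RNA (1.37e-04). The neighbours of EXOSC10 moved the other way: 25 rose and none fell in mRNA-seq (median 0.84), and 16 and 12 rose in shDicer and shAgo2 chromatin RNA (medians 0.50 and 0.41). Relative to its neighbourhood, EXOSC10 had a negative value in mRNA-seq, −0.35, which did not pass (adjusted p = 0.00127). EXOSC3 lay in a raised neighbourhood in mRNA-seq (median 0.61), against which it was lower (−0.71, adjusted p = 8.52e-05). Around RBM7, ZFC3H1 and TENT4B the medians in mRNA-seq lay between −0.28 and −0.22, and relative to them the genes stood at −0.66, −0.97 and −0.63, the last no longer past the threshold (adjusted p = 0.00145). In shAgo2 chromatin RNA TENT4B lost its call in the same way (−0.32, adjusted p = 0.0109). For XRN2 in shDicer chromatin RNA the median was −0.26 and the offset value −0.66 (adjusted p = 0.0022). In mRNA-seq, 18 of the 50 genes around XRN2 fell and 1 rose (median −0.47), where XRN2 itself changed by −0.19. In shAgo2 chromatin RNA the genes around ZFC3H1 had a median of 0.29, relative to which ZFC3H1 was lower (−0.31, adjusted p = 0.00458).

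Whether the shDicer change was the same in both assays was asked with a contrast of contrasts (10 samples, 31106 genes, threshold 0.005), a positive value meaning a higher fold change in mRNA-seq. It passed for 4 of the 10 genes, where 5.03% of all genes did and the median of all genes was 0.099. ZFC3H1 (−1.02, SE 0.16, adjusted p = 5.8e-04), DIS3 (−0.95, SE 0.12, adjusted p = 1.14e-04) and RBM7 (−0.71, SE 0.14, adjusted p = 0.00392) were lowered more in mRNA-seq than on chromatin, and XRN2 (0.80, SE 0.15, adjusted p = 0.00179) less. For TENT4B (−0.34, adjusted p = 0.234) and EXOSC10 (0.30, adjusted p = 0.1002) no difference was shown. The wt and shDicer lines of both assays differ in name and in length of induction, which cannot be told apart from the assay, and the TMM factors of the joint fit spread from 0.589 to 2.10. With DESeq2's size factors the median of all genes moved by −0.14, from 0.099 to −0.045, and the split of calls from 1189 higher and 375 lower to 654 and 579. XRN2 then stood at 0.63 (adjusted p = 0.0144). The difference was lost for DIS3 relative to its neighbourhood (−0.13, adjusted p = 0.598) and for ZFC3H1 with coding transcripts alone (adjusted p = 0.440). Relative to their neighbourhoods, ZFC3H1 (adjusted p = 0.0103) and RBM7 (0.0312) lost it too. With counts scaled from TPM it was lost for DIS3 (0.0429), RBM7 (0.149) and XRN2 (0.00594). RBM7 and XRN2 also lost it with no filter on low counts (0.00885 and 0.00975) and with unannotated transcripts kept (0.00651 and 0.012). For RBM7 it was lost without any 1 of 8 of the 10 libraries (all but replicates 1 and 3 of shDicer mRNA-seq), with adjusted p from 0.00694 to 0.0422. For XRN2 it was lost without any 1 of 6: wt and shDicer replicates 2 and 3 of mRNA-seq, and wt replicate 2 and shDicer replicate 1 of chrRNA-seq, with adjusted p from 0.00518 to 0.0239.

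Counts were also split by transcript type, with the protein-coding transcripts of a gene as one feature and its other transcripts as another. This gave 19 features for the 10 genes, of which 4 passed in shDicer mRNA-seq, 4 in shDicer, 3 in shAgo2 and 1 in shDrosha chromatin RNA. Of all features 14.1%, 16.6%, 19.5% and 1.63% passed. The DIS3 transcripts not annotated as protein-coding are DIS3-203 and DIS3-204. In chromatin RNA this class changed by −2.61 (SE 0.16) in shDicer and −2.43 (SE 0.15) in shAgo2 cells. These values rest in part on DIS3-204, listed at 0 in every chromatin sample of both lines, which can be an estimate. DIS3-203 had 324 and 338 counts in wt and between 119 and 175 in these lines. The coding transcripts of DIS3 changed by −0.80 (SE 0.089) in shDicer and −0.76 (SE 0.089) in shAgo2 cells. In mRNA-seq its class of other transcripts changed by −2.03 (SE 0.13) and its coding class by −2.07 (SE 0.079). The coding transcripts of EXOSC10 rose in mRNA-seq (0.59, SE 0.067, adjusted p = 2.14e-04). The coding transcripts of MTREX were higher in shAgo2 chromatin RNA (0.37, SE 0.076, adjusted p = 0.00344). The transcripts of TENT4B other than coding were higher in the samples labelled shDrosha (0.48, SE 0.093, adjusted p = 0.0359).

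One DIS3 transcript was chosen for description after its values were seen. DIS3-204, the form without exon 13, had 472 and 324 estimated counts in wt chromatin RNA and 419 and 391 in the samples labelled shDrosha. It was listed at 0 in both shDicer and both shAgo2 samples. DIS3-201, the longest coding form, had 1585 and 1696 counts in wt and between 1018 and 1268 in the 4 samples of these lines. In mRNA-seq DIS3-204 had 2382, 2150 and 1434 counts in wt and 479, 545 and 776 in shDicer cells. It was therefore present there, at 27.4 to 31.7% of DIS3 counts in shDicer and 25.3 to 31.2% in wt cells. kallisto assigns reads that fit several transcripts by their likelihood, so that a 0 can be an estimate rather than an absence of reads, and the files hold no measure of this uncertainty. No test was made for single transcripts.

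**Figure D4:**
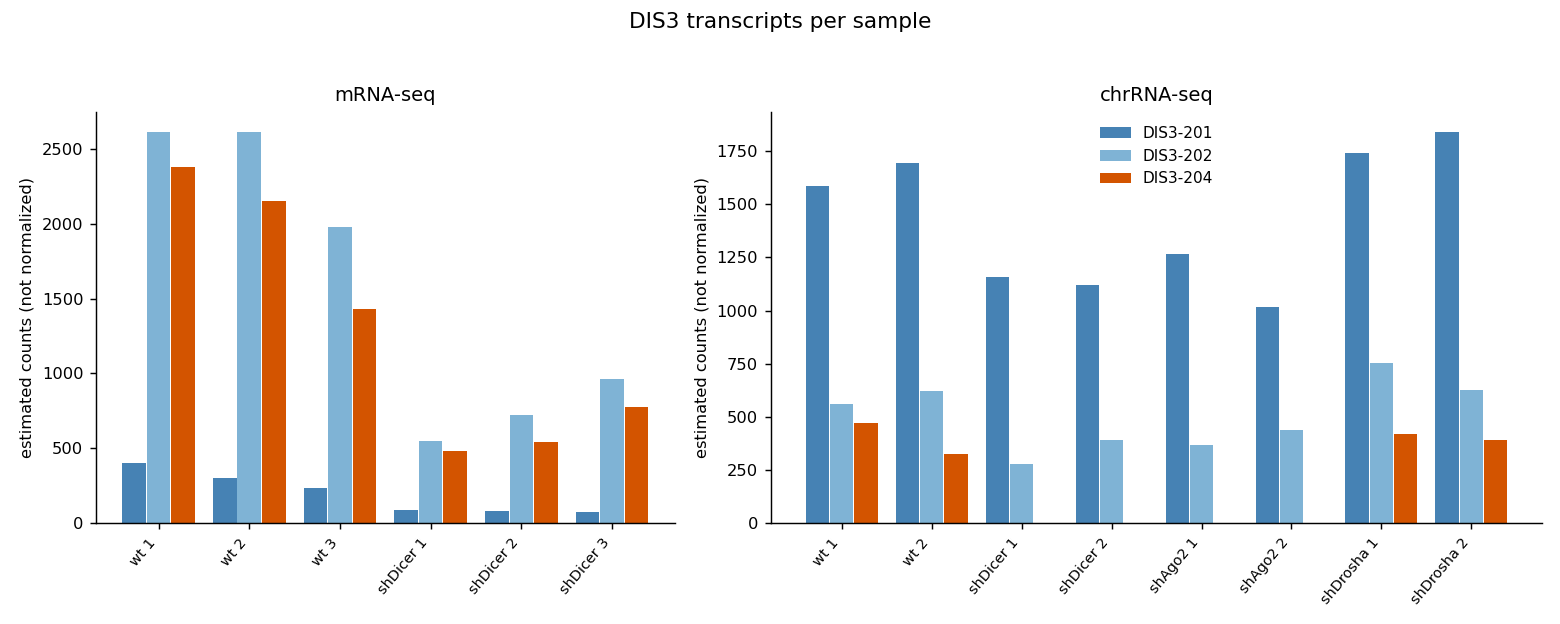
Estimated counts (not normalized, bars from 0) in each sample of mRNA-seq (left) and chrRNA-seq (right). Shown are DIS3-201, DIS3-202 and DIS3-204, 3 of the 5 DIS3 transcripts. DIS3-204 has 324 to 472 counts in wt and shDrosha chromatin RNA and is listed at 0 in shDicer and shAgo2 chromatin RNA.

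The leading transcript of a gene often changed between the assays. Over the samples of mRNA-seq, DIS3-202 held 35.4% of DIS3 counts, while DIS3-201 held 59.5% in chromatin RNA. For EXOSC10, EXOSC10-202 led in both, with 93.1% and 62.3%. For EXOSC3, the coding EXOSC3-201 led in mRNA-seq with 64.1%, and EXOSC3-203, annotated for nonsense-mediated decay, on chromatin with 44.3%. For TENT4B the coding TENT4B-202 held 89.1% in mRNA-seq, and TENT4B-201, also annotated for nonsense-mediated decay, led on chromatin with 37.9%. The reverse was seen for MTREX and ZFC3H1, where MTREX-207 and ZFC3H1-212, both annotated for nonsense-mediated decay, led over the mRNA-seq samples together (53.7% and 51.4%), and the coding MTREX-201 and ZFC3H1-201 on chromatin (41.3% and 42.0%). RBM7-201 (59.5%), ZCCHC8-210 (59.6%) and PABPN1-201 (58.6%) led in mRNA-seq, and RBM7-204 (75.5%), ZCCHC8-207 (45.6%) and PABPN1-202 (62.4%) on chromatin, all of them coding. These shares are over counts summed across wt and the other groups of an assay, and 4 of the leaders did not lead in every sample. DIS3-202, MTREX-207 and ZFC3H1-212 each led in 5 of 6 mRNA-seq samples, and TENT4B-201 in 7 of 8 chrRNA-seq samples. In shDicer replicate 1, MTREX-201 had 1496 counts and MTREX-207 1469. ZFC3H1-201 had 207 counts and ZFC3H1-212 81.6 in shDicer replicate 3, whereas in shDicer replicate 2 ZFC3H1-201 was near 0. Transcripts with a retained intron held 20.7 to 25.4% of EXOSC10 counts in wt chromatin RNA and 5.62 to 7.01% in wt mRNA-seq.

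Of 34 further genes of the same pathways, 33 were tested in mRNA-seq, where 9 fell and 2 rose in shDicer cells (14.2% and 15.6% of all genes). In chromatin RNA, where all 34 were tested, 17 fell and 1 rose in shDicer (10.5% and 11.0% of all genes), 17 fell and 4 rose in shAgo2 (12.1% and 12.5%), and 2 fell and 1 rose in the samples labelled shDrosha (3.38% in either direction). Their medians were −0.17, −0.39, −0.36 and −0.031, in the same order, and those of all genes 0.011, 0.0072, 0.0028 and 0.0049. Of the 8 remaining core subunits of the barrel, 6 fell in each of shDicer and shAgo2 chromatin RNA, where 10.5% and 12.1% of all genes fell (medians −0.43 and −0.46), 2 fell in mRNA-seq, where 14.2% did (median −0.19), and none passed in the samples labelled shDrosha (median −0.16). EXOSC9, a ring subunit, fell by 0.94 (SE 0.077) in mRNA-seq and by 0.84 (SE 0.11) in shDicer chromatin RNA. EXOSC4, also of the ring, fell on chromatin by 0.83 (SE 0.13) in shDicer and 0.999 (SE 0.13) in shAgo2 cells.

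Of 4 other exosome nucleases and cofactors, 2 fell in each of the first 3 comparisons and none rose. Over all genes 14.2%, 10.5% and 12.1% fell in these comparisons, and 15.6%, 11.0% and 12.5% rose. MPHOSPH6, which associates with the nuclear exosome, fell by 0.95 (SE 0.11) in mRNA-seq. Among 5 other TRAMP, NEXT and PAXT factors, 4 of which were tested in mRNA-seq, 2 fell in each of the first 3 comparisons and 2 rose in shAgo2. RBM26, a PAXT partner that lies on chromosome 13 as DIS3 does, fell by 2.06 (SE 0.092) in mRNA-seq and by 1.21 (SE 0.081) and 1.27 (SE 0.081) in shDicer and shAgo2 chromatin RNA. ZC3H3, another PAXT partner, fell by 0.89 (SE 0.15) in shAgo2 cells.

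Of 7 cap-binding, ARS2 and restrictor genes, 1 fell in mRNA-seq, 3 in shDicer, 5 in shAgo2 and 2 in the samples labelled shDrosha, and none rose. For each list here, the shares of all genes that fell were 14.2%, 10.5% and 12.1% in the first 3 comparisons. Those that rose were 15.6%, 11.0% and 12.5%, and in shDrosha samples 3.38% passed in either direction. The 1 of 7 in mRNA-seq is near the share of all genes. NCBP1, the large subunit of the nuclear cap-binding complex, fell by 0.85 (SE 0.095) and 0.78 (SE 0.095) on chromatin in shDicer and shAgo2 cells. In the samples labelled shDrosha the 2 that fell were ZC3H4 (−0.44, SE 0.095, adjusted p = 0.0302), a restrictor subunit, and SRRT (−0.31, SE 0.073, adjusted p = 0.043), which encodes ARS2. Among 6 genes for XRN2 partners and 5′ decay, 1 rose in each of the first 3 comparisons, while 1, 3 and 2 fell, and none passed in the samples labelled shDrosha. NKRF, which binds XRN2, fell by 1.05 (SE 0.099) in mRNA-seq. Of 4 genes of the cytoplasmic SKI complex and its link to the exosome, 1 rose and 1 fell in mRNA-seq. On chromatin, 1 fell in shDicer, 1 rose in shAgo2 and 1 rose in shDrosha samples. The last was HBS1L (0.35, SE 0.079, adjusted p = 0.0349).

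The likeness of the 10 genes was measured as the Euclidean distance between their 4 log2 fold changes against wt, a description over comparisons that share wt samples. EXOSC3 and ZCCHC8 were nearest to each other (distance 0.127), and MTREX was nearest to EXOSC3 (0.175). RBM7 and ZFC3H1 formed another pair (0.381), and TENT4B was nearest to RBM7 (0.514). DIS3 stood furthest from its nearest member, TENT4B (1.48), and XRN2 followed (0.909, ZCCHC8). Among 9002 genes whose log2 CPM averaged 3 or more in each assay, the 3 nearest to MTREX were DENND11 (0.0499), SBNO1 (0.083) and FEM1C (0.0898).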

How the data were processed

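mRNA-seq (3 wt, 3 shDicer) and chrRNA-seq (2 each of wt, shDicer, shAgo2 and shDrosha) were analysed; the 6 small RNA samples were not analysed here. The deposited files hold estimated counts per transcript, which the authors made with kallisto, without pooling replicates. The methods give the Ensembl release 89 index, the kallisto version and a strand setting under chrRNA-seq; the mRNA-seq files list the same transcripts. Trimming is not given in the sources used here. The TPM values in the same files are the authors' kallisto estimates, scaled for length and depth. The mRNA-seq library kit was stranded. The labels call the mRNA-seq RNA polyadenylated, while the methods describe ribosomal depletion.

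Of 217082 transcripts, 193697 were found in GENCODE release 44 (hg38), and their estimated counts were summed per gene and rounded. Comparisons used edgeR 4.0.16 (quasi-likelihood test, filterByExpr, TMM, Benjamini-Hochberg adjustment) in R 4.3.3, with 1 fit over the 6 mRNA-seq samples, 1 over the 8 chrRNA-seq samples and 1 over 10 for the difference between assays. Thresholds are those of the study, and 0.005 where it had none. DESeq2 1.42.0, other normalizations, filters, transcript sets, an offset for chromosomal neighbourhood, a replicate block and left-out libraries were alternatives. The code was tested on simulated data. A count of 3 corresponds to 0.149 to 0.311 CPM, for counting error only.

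The 10 genes and the lists were chosen with earlier results of these data known. All 10 genes are named, and of the pathway lists up to 4 genes per comparison with the largest change past the threshold. The labels do not say that replicates are separate cultures, so p-values measure only the spread between these samples. Replicate numbers did not pair the samples (correlation of deviations 0.046 to 0.081 in mRNA-seq, −0.13 to 0.028 in chrRNA-seq).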

Additional observations from a re-analysis of the deposited data

Results flagged for a closer look

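The shDicer change differed between mRNA-seq and chrRNA-seq for 4 of the 10 genes, by a contrast of both changes in 1 edgeR fit, where 5.03% of all genes passed. For DIS3 the difference was −0.95, from −2.12 in mRNA-seq and −1.09 on chromatin. For ZFC3H1 it was −1.02, from −1.19 and −0.094, and for RBM7 −0.71, from −0.92 and −0.14. For XRN2 it was 0.80, from −0.19 and −0.92. The difference was lost for DIS3 relative to its neighbourhood (−0.13, adjusted p = 0.598) and with counts scaled from TPM (0.0429). ZFC3H1 lost it with coding transcripts alone (adjusted p = 0.440) and relative to its neighbourhood (0.0103). RBM7 lost it without any 1 of 8 libraries, and XRN2 with DESeq2's size factors (0.63, adjusted p = 0.0144) or without any 1 of 6 libraries. RBM7 and XRN2 also lost it with counts scaled from TPM, with no filter on low counts and with unannotated transcripts kept. RBM7 further lost it relative to its neighbourhood (adjusted p = 0.0312). The cell lines and the length of induction differ between the assays as well, and their part cannot be told apart.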

How the results depend on the processing

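Of 1618 values of single genes under the alternatives, 1423 kept their direction and side of the threshold, 71 passed in neither fit and changed sign, 96 lost and 27 gained a call, and 1 reversed: EXOSC10 in mRNA-seq, at −0.35 with the neighbourhood median as offset. The cause was not tested. Numbers of the 10 genes called moved by over 1.5 times as follows. With a log2 fold change above 1 asked for as well, 2 passed in mRNA-seq and 1 in each of shDicer and shAgo2 against wt, shDicer and shAgo2 against shDrosha, and the difference between assays. With counts scaled from TPM, 1 passed for shAgo2, 3 for shDicer against shDrosha, 2 for shAgo2 against shDrosha and 1 for the difference between assays. With the neighbourhood offset the last 3 were 3, 2 and 1. With unannotated transcripts kept, 3 passed for shDicer against shDrosha and 2 for the difference between assays, which was also 2 with no filter on low counts. With no filter, and with coding transcripts only, 1 passed for shDicer against shAgo2, and with coding transcripts 1 for shAgo2 against shDrosha. At a threshold of 0.05, 5 passed for shAgo2 and 2 for shDicer against shAgo2. With only the wt and shAgo2 samples fitted, 4 passed for shAgo2. Calls over all genes rose in that fit too, from 8069 of 32874 genes to 11001 of 31547. The shares of all genes at 0.05 and with the minimum log2 fold change are not given here. The counts of the 10 genes under those settings therefore cannot be set beside them. Leaving out 1 library gave 1 to 2 for shAgo2, 3 to 5 for shDicer against shDrosha, 2 to 4 for shAgo2 against shDrosha and 2 to 4 for the difference between assays. A library left alone in its group was assumed to vary like the others.

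The replicate block gave 5, 3, 2, 0, 0, 4, 3 and 4 calls against 5, 3, 2, 0, 0, 5, 4 and 4 without it (mRNA-seq, shDicer, shAgo2, shDrosha, shDicer against shAgo2, both against shDrosha, difference between assays). Since shDicer and shDrosha numbers correlated at −0.13, a block with the shDrosha numbers crossed was added after seeing the data, and gave 4 calls for shAgo2, 2 for shDrosha and 2 for shDicer against shAgo2. Calls over all genes rose in that fit too, to 9847, 3111 and 1931, which is 30%, 9.46% and 5.87% of the 32874 genes.

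Calls over all genes, main against the lowest and highest alternative, were 4492 (2725 to 6564) in mRNA-seq, 7096 (3584 to 8797) for shDicer, 8069 (4146 to 11001) for shAgo2, 1110 (72 to 3111) for shDrosha, 891 (107 to 1931) for shDicer against shAgo2, 6734 (3414 to 8435) and 7203 (3608 to 8926) against shDrosha, and 1564 (657 to 2273) for the difference between assays. For shDrosha the lowest count came without wt replicate 1. Adjusted p-values that DESeq2 gave as missing were left out.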
